A study of Mus musculus with 4 samples.

Results

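The 8 genes described here, Tcf7, Lef1, Bach2, Id3, Klf2, Slamf6, Il7r and S1pr1, are a set chosen by name as genes of naive and stem-like T cells, out of 30408 genes counted. They were followed in single cells sorted for the leukocyte surface protein CD45 from tumours of MB49, a mouse bladder carcinoma line, grown in male and in female mice. Each library was made once, so the male CD45-positive library was set beside the female CD45-positive library with no replicate and no test; a further pair of CD45-negative libraries, male and female, held the other tumour cells. The labels used here give no mouse strain, age, site of growth or number of tumours per library, and no treatment or mutant allele is named for either sex. Single-cell RNA had been captured with the BD Rhapsody system and counted by unique molecular identifiers (UMIs), short random tags that let copies of 1 molecule be counted once.

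Naive T cells, and the stem-like cells that renew a T cell response in tumours and chronic infection, share a small set of transcription factors and surface receptors. TCF-1, encoded by Tcf7, and its relative LEF-1 bind DNA through an HMG box and act with beta-catenin or Groucho-type co-repressors. KLF2 switches on S1pr1, so that a resting T cell can leave lymphoid tissue along the sphingosine-1-phosphate gradient. The interleukin-7 receptor alpha chain, Il7r, passes the survival signal of interleukin-7 and, paired with Crlf2, the signal of thymic stromal lymphopoietin. In exhausted CD8 cells, Tcf7 and Slamf6 mark the cells that still renew, while Havcr2 marks the terminal ones. Several of the 8 genes are also used outside T cells, for example Tcf7 and Id3 in innate lymphocyte development and Klf2 in monocytes and endothelium, and the levels in dendritic and other myeloid cells are therefore given beside those in lymphocytes.

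The genes lie on mm10 at chr11:52252371-52283014, minus strand (Tcf7), chr3:131110471-131224356, plus strand (Lef1), chr4:32238804-32586108, plus strand (Bach2), chr4:136143497-136145755, plus strand (Id3), chr8:72319033-72321656, plus strand (Klf2), chr1:171917515-171953170, plus strand (Slamf6), chr15:9505788-9530176, minus strand (Il7r), and chr3:115710433-115715072, minus strand (S1pr1), all annotated by GENCODE M21 as protein-coding. No other annotated gene overlaps Il7r, Id3, S1pr1 or Klf2. Tcf7 overlaps Gm26551 on its own strand and A630014C17Rik on the other, Slamf6 overlaps Gm37065, Lef1 overlaps Gm43352 and Gm42449, and Bach2 overlaps 3 annotated transcripts including Bach2os. The sources used here do not say whether strand was used in counting, so reads of these neighbours cannot be told apart from those of the genes.

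RefSeq's table of promoter windows held 7 of the 8 genes. The 250 bases before the RefSeq start of Klf2, at chr8:72318812-72319061 on the plus strand of GRCm38.p6, are shown. Klf2 was the only gene of the set counted in every gate and every smaller subset of both libraries. It was also the one whose male level stood highest over the female level in T cells. Capitals mark CTAAATT, a MEF2-type site found on both strands with overlapping matches, and the reverse complement of the KLF-type box CCACCC.
Klf2: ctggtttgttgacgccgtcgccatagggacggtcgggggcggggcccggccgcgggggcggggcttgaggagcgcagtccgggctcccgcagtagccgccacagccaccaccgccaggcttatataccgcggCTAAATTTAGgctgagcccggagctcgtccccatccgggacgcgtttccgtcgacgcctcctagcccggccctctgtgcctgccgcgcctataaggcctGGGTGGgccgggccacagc
The MEF2-type letters begin 118 bases before the start. On either strand they were found in 833 of 32851 promoter windows of the table (2.54%), whereas CCACCC was found in 31.5% of them. Among the 11 windows of the members, CCACCC or its complement was also present in windows of Lef1, Id3 and Tcf7. The FOXO-type letters GTAAACA, in 3.65% of all windows, were in 1 window of Tcf7, the ETS-type letters AGGAAGT, in 9.35%, were in 1 window each of Lef1 and Il7r, and the TCF/LEF-type letters CTTTGAT, in 3.73%, were in none. A match of letters is a description of the sequence and not of binding.

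Cells of 500 UMIs or more and 250 genes or more, with mitochondrial UMIs at 25% or less, numbered 5379 male and 4595 female CD45-positive cells, with median depths of 5980 and 6047 UMIs. Each cell was placed in a gate by its own marker UMIs, which gave 323 male and 110 female CD8 cells, 179 and 133 CD4 cells, 160 and 42 regulatory T (Treg) cells, 155 and 101 NK cells, 513 and 191 dendritic cells and 2940 and 3066 other myeloid cells, which were phagocytes and neutrophils. CPM here is a gene's UMIs per 1000000 UMIs summed over the cells of a gate. The 6 T cell markers held out of the gating summed to 3439 CPM in male and 3358 CPM in female CD8 cells, against 30.5 and 50.4 CPM in phagocytes. The 6 held-out Treg markers summed to 3967 CPM in male and 4259 CPM in female CD4 cells. They summed to 8484 and 8671 CPM in Treg cells and to 1238 and 1344 CPM in CD8 cells. Treg cells with no Foxp3 UMI could thus remain in the CD4 gate, which was not tested. All intervals are 95% and cover counting error only, since UMIs of 1 cell are not independent and libraries were not replicated. In summed counts, fewer cells with a transcript and fewer copies per cell cannot be told apart, and shares of cells are given beside the levels for that reason. The median male:female ratio of all measured genes was near 1 in each of the 6 gates, between -0.02 and 0.07 on the log2 scale. The 3 C1q genes, made by macrophages, were counted in every lymphocyte gate and were lower in the male library, at 486 CPM in male and 1087 CPM in female CD8 cells, 452 and 1151 CPM in CD4 cells, 460.1 and 1218 CPM in Treg cells and 463 and 1162 CPM in NK cells. Their part in the results on Il7r and Slamf6, which phagocytes also carry, was not tested.

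**Figure D1:**
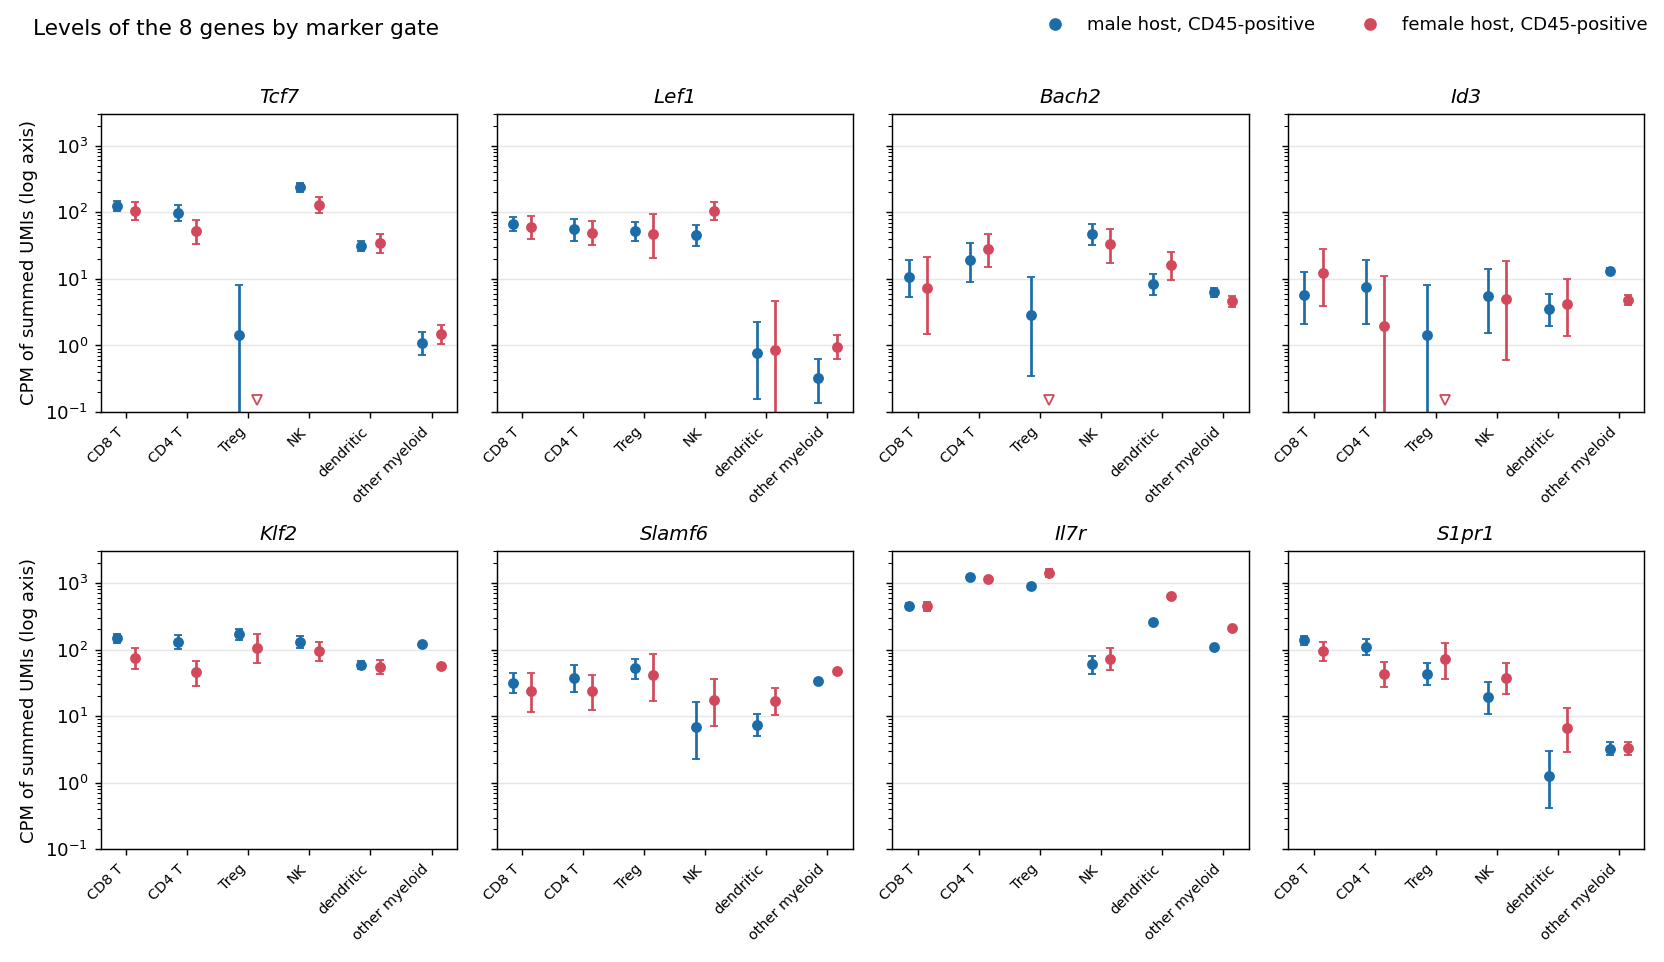
Levels of the 8 genes in 6 marker gates, as CPM of summed UMIs on a log axis, with the male library left of the female library in each gate. Points are the 1 library per sex, bars are exact 95% Poisson intervals and open triangles mark a count of 0. Tcf7 had 1 UMI in male and 0 UMIs in female Treg cells, where Lef1 had 36 and 8 UMIs, and Il7r, Slamf6 and Klf2 reach into the myeloid gates.

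Tcf7 was found in NK, CD8 and CD4 cells and was nearly absent from Treg cells. It reached 235 CPM in male and 129 CPM in female NK cells, 123 and 106 CPM in CD8 cells, and 98.8 and 51.4 CPM in CD4 cells. Among 160 male Treg cells 1 Tcf7 UMI was counted, and among 42 female Treg cells none. The Treg level was 0.0118 of the CD8 level in the male library (interval 0.000296 to 0.0667), and in the female library CD8 cells were at least 5.98-fold higher, taking the floor of 3 counts for the Treg gate. Treg cells were not shallow: their median depths were 3203.5 UMIs in male and 2775 UMIs in female hosts, against 2280 and 2788 in CD8 cells. Lef1, in the same Treg cells, stood at 52.3 CPM in male and 47.3 CPM in female hosts.

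In male NK cells the Tcf7 level exceeded that of male CD8 cells, with intervals that did not overlap; in female hosts the NK and CD8 intervals overlapped. T cells outside the CD8, CD4 and Treg gates carried Tcf7 as well, at 209 CPM in male and 152 CPM in female gamma-delta T cells, from 22 and 43 cells, and at 221 and 170 CPM in CD3-positive cells with no UMI of Cd4 or Cd8. Phagocytes held 1.08 CPM in male and 1.51 CPM in female hosts. A Tcf7 UMI was seen in 23.8% of male and 23.6% of female CD8 cells and in 0.931% and 1.25% of phagocytes, whose median depths were 10014 and 7209 UMIs. With every cell thinned to 1000 UMIs the shares were 13.8% and 10.3% in CD8 cells, 18.7% and 17.5% in NK cells, and 0.233% and 0.0776% in phagocytes.

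Lef1 levels overlapped between neighbouring lymphocyte gates, and the gene was almost missing from myeloid cells. It stood at 66.5 CPM in male and 60.2 CPM in female CD8 cells, and at 55.1 and 49.5 CPM in CD4 cells. These neighbours, and the Treg level, did not differ beyond their intervals in either library. NK cells differed between the libraries, with 45.9 CPM in male hosts (33 UMIs in 26 of 155 cells) and 106 CPM in female hosts (42 UMIs in 25 of 101 cells). Dendritic cells held 0.767 and 0.843 CPM, and other myeloid cells 0.323 and 0.962 CPM.

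Bach2, a repressor that restrains effector genes in lymphocytes, had its highest level among the 6 gates in NK cells in both libraries, where the interval overlapped that of CD4 cells, with 47.3 CPM in male and 32.8 CPM in female hosts. CD4 cells held 19.0 and 27.7 CPM, and CD8 cells 10.6 and 7.23 CPM, from 11 UMIs and 3 UMIs. Gamma-delta T cells held 36.9 and 53.7 CPM, from 3 UMIs and 6 UMIs. The Treg gate held 2 Bach2 UMIs over all male cells and 0 over all female cells. Outside lymphocytes, type 2 dendritic cells (cDC2, from Cd209a and Clec10a) held 21.3 and 19.8 CPM, and phagocytes 6.46 and 4.58 CPM.

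Id3, an inhibitor of E proteins that is known for marking memory and stem-like CD8 cells, was barely counted in T cells. The CD8 gates held 6 UMIs in 6 of 323 male cells and 5 UMIs in 4 of 110 female cells, and the CD4 gates 4 UMIs and 1 UMI. Most Id3 UMIs lay in the other myeloid gate, 64.7% of those in the male library and 52.0% of those in the female library. Phagocytes held 13.4 CPM in male and 4.93 CPM in female hosts. At these levels a difference between the libraries in T cells was not detectable.

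Klf2 was counted in every gate. The male library stood above the female one in CD8 cells (147 and 74.7 CPM), CD4 cells (131 and 45.5 CPM) and Treg cells (168 and 106 CPM). NK cells held 129 CPM in male and 96.0 CPM in female hosts. The highest level of all was in neutrophils, at 446 CPM in male and 214 CPM in female hosts, where 201 of 578 male and 35 of 175 female cells had a Klf2 UMI at median depths of 1243.5 and 1199 UMIs. Phagocytes held 112 and 55.8 CPM, and the dendritic gate 59.1 and 54.8 CPM.

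**Figure D2:**
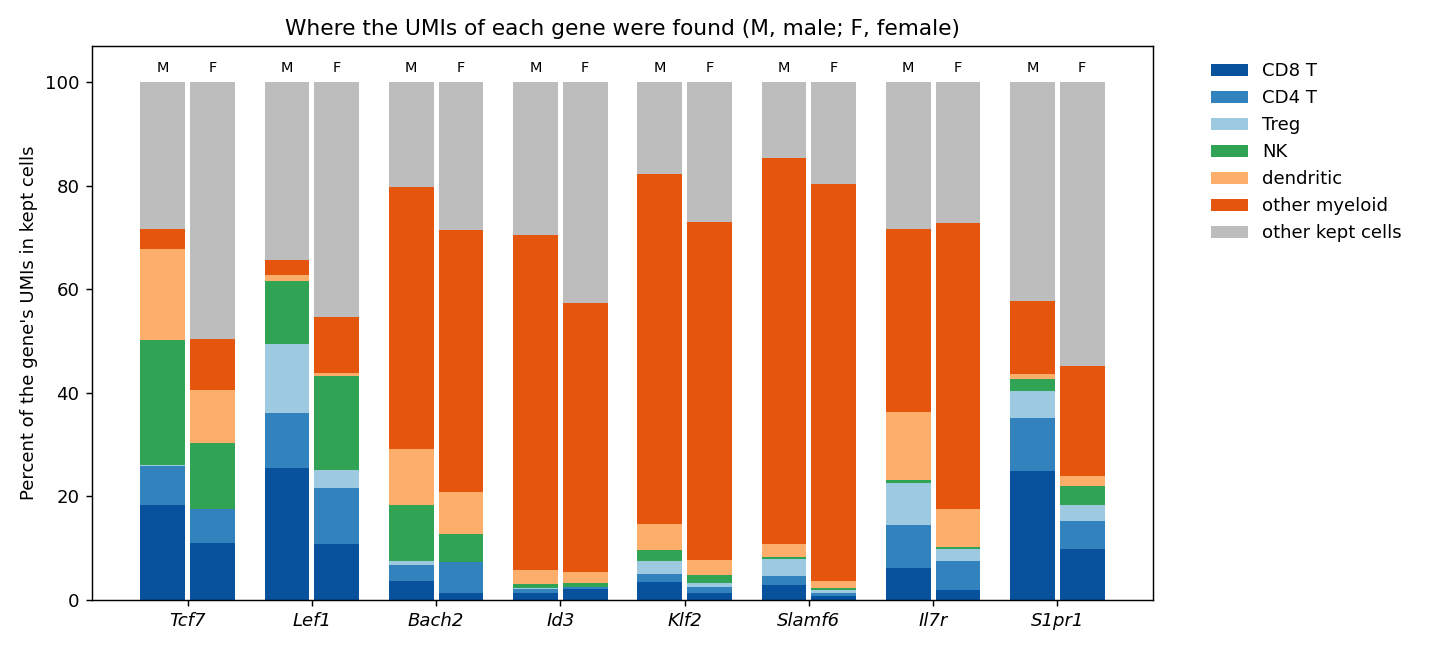
Percent of each gene's UMIs in kept CD45-positive cells that lay in each gate, with the male library (M) left of the female library (F); grey is the remainder, cells outside the 6 gates. Myeloid cells outside the dendritic gate hold 74.5% of male and 76.9% of female Slamf6 UMIs, against 3.87% and 9.77% of Tcf7 UMIs.

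Slamf6 is a SLAM-family receptor that signals through SAP in T cells, and most of its UMIs in these tumours lay in phagocytes. CD8 cells held 31.8 CPM in male and 24.1 CPM in female hosts, CD4 cells 38.0 and 23.7 CPM, and Treg cells 52.3 and 41.4 CPM. Phagocytes held 35.4 and 47.5 CPM, and the other myeloid gate, the most numerous, held 74.5% of the male and 76.9% of the female Slamf6 UMIs. After thinning to 1000 UMIs, 3.26% of male and 4.15% of female phagocytes had a Slamf6 UMI, beside 4.08% and 4.67% of CD8 cells. Neutrophils held 1 Slamf6 UMI over 578 male cells and 0 over 175 female cells (a count of 0 there allows up to 12.6 CPM). Plasmacytoid dendritic cells (pDC, from Siglech) had the highest point value, 106 CPM in male and 79.3 CPM in female hosts. These values rest on 8 UMIs in 20 male cells (45.9 to 210 CPM) and 7 UMIs in 26 female cells (31.9 to 163 CPM). Both intervals overlapped those of Treg cells (36.6 to 72.3 CPM in male and 16.6 to 85.2 CPM in female hosts).

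Among the 6 gates Il7r was highest in CD4 and Treg cells. Male CD4 cells held 1209.8 CPM and female CD4 cells 1126 CPM, and 75.4% and 75.2% of the cells had a UMI. Treg cells held 896 CPM in male and 1413 CPM in female hosts, and CD8 cells 450.2 and 446 CPM. The small gamma-delta gate held 418 CPM in male and 1736 CPM in female hosts. NK cells were lowest of the 6 gates in both libraries, with 59.8 and 73.3 CPM. Other myeloid cells held 35.3% of the male and 55.2% of the female Il7r UMIs.

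The myeloid Il7r signal was uneven between cell types. It was high in pDC (1011 CPM in male and 1110.2 CPM in female hosts, in 19 of 20 and 23 of 26 cells) and in mature dendritic cells (487 and 813 CPM), and intermediate in cDC2 (229 and 444 CPM) and phagocytes (112 and 216 CPM). It was low in type 1 dendritic cells (cDC1, from Xcr1 and Clec9a), with 7.86 CPM over 129 male cells and none in 8 female cells, and in neutrophils, with 19.0 and 12.6 CPM. The held-out T cell genes stood at 22.2 and 34.2 CPM in mature dendritic cells and at 26.6 and 56.6 CPM in pDC.

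S1pr1, the receptor through which lymphocytes leave tissue, was higher in male CD8 and CD4 cells than in male Treg and NK cells, with intervals that did not overlap. CD8 cells held 138 CPM in male and 94.0 CPM in female hosts, CD4 cells 110.2 and 43.5 CPM, Treg cells 43.5 and 70.9 CPM, and NK cells 19.5 and 37.9 CPM. The male CD8 and CD4 intervals overlapped, as did those of male Treg and NK cells. Among female lymphocytes every pair next to each other by level overlapped. The female CD8 interval (66.8 to 128) nonetheless lay above those of female CD4 cells (27.3 to 65.9) and NK cells (21.2 to 62.5). Dendritic cells held 1.28 and 6.74 CPM, and other myeloid cells 3.27 CPM in both libraries.

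**Figure D3:**
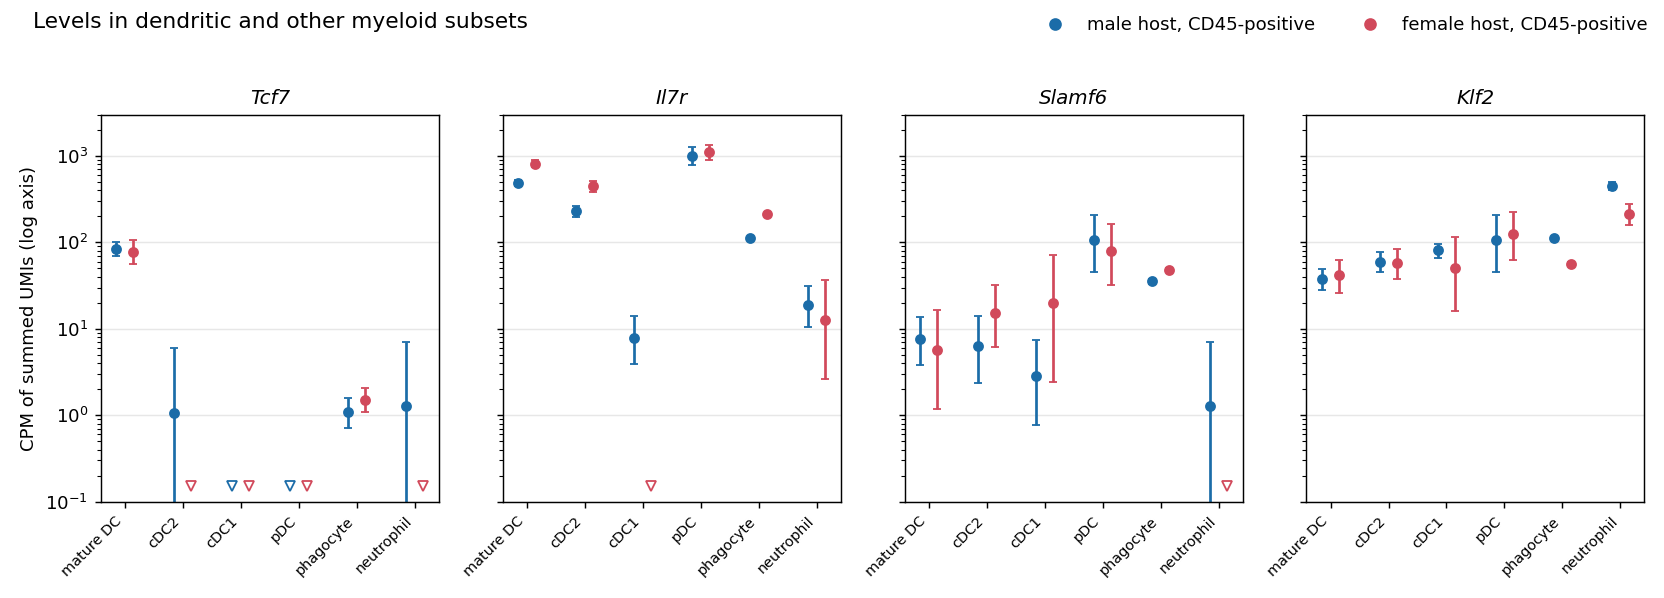
Levels of 4 of the genes in dendritic subsets, phagocytes and neutrophils, as CPM of summed UMIs on a log axis, male left of female, with exact 95% Poisson intervals and open triangles for a count of 0. Among these subsets Tcf7 is seen at 84.8 CPM in male and 77.9 CPM in female mature dendritic cells, and Klf2 is highest in neutrophils.

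Mature dendritic cells, the Ccr7- and Fscn1-expressing state in which dendritic cells migrate to lymph nodes, were a further Tcf7-positive population. They held 84.8 CPM in male hosts (122 UMIs in 41 of 223 cells) and 77.9 CPM in female hosts (41 UMIs in 13 of 85 cells). In the male library cDC2 held 1 UMI in 130 cells, and cDC1 and pDC held none in 129 and 20 cells. In the female library cDC2, cDC1 and pDC held none in 68, 8 and 26 cells. Mature dendritic cells with a Tcf7 UMI held 3.85 CPM of the 9 T cell markers in the male library, against 36.5 CPM in those without, and 44.2 CPM in the female library, against 48.0 CPM. Lef1 was at 0 in the Tcf7-positive mature dendritic cells of both libraries, and at 1.70 CPM in male and 0 CPM in female cells without Tcf7. With only 41 male and 13 female cells with Tcf7, a low level of Lef1 or of T cell markers could not be told from none.

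Genes that were higher in the mature dendritic cells with Tcf7 were ranked by the smaller of the 2 libraries' ratios, a comparison added after the Tcf7 counts had been seen. Tubb2b, a beta-tubulin, came first, with 200.04 CPM in cells with Tcf7 and 17.8 CPM in cells without in the male library, and 294 against 26.2 CPM in the female library. Spib, an ETS factor of B cells and pDC, was 5.89-fold higher in male cells (interval 3.57 to 9.83) and 3.61-fold higher in female cells (1.79 to 7.001). Marveld1 was 8.02-fold and 5.56-fold higher and Vsig10 5.44-fold and 5.06-fold higher. Because the genes were picked from all those counted by these same ratios, the sizes and the shared direction are a description of these cells.

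Within the CD8 gate, cells with a Tcf7 UMI held more Klf2 and less Havcr2 than cells without, in both libraries. There were 77 such cells and 246 without in the male library, with median depths of 2156 and 2304 UMIs, and 26 and 84 in the female library, with 3806 and 2590 UMIs. Lef1 was 3.72-fold higher in Tcf7-positive male cells (2.25 to 6.13) and 2.39-fold in female cells, where the interval just included 1 (0.995 to 5.67). Klf2 was 1.71-fold higher (1.19 to 2.44) and 2.42-fold higher (1.12 to 5.24).

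In male Tcf7-positive CD8 cells S1pr1 was 2.77-fold higher (1.95 to 3.90) and in female ones 1.45-fold, with an interval that included 1 (0.696 to 2.89). Il7r was 2.46-fold higher in the male cells (2.04 to 2.98), whereas in the female cells it stood at 0.958 of the Tcf7-negative level (0.678 to 1.33). Slamf6 had 9 UMIs in male and 5 in female Tcf7-positive cells, and its intervals included 1 in both.

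Among effector genes, Havcr2, the gene of the exhaustion receptor TIM-3, stood in Tcf7-positive CD8 cells at 0.317 of the Tcf7-negative level in the male library (0.160 to 0.570) and at 0.118 in the female library (0.0138 to 0.451). Prf1, which encodes perforin, stood at 0.276 and 0.0834, Ccl3 at 0.290 and 0.0749, and Pdcd1, which encodes PD-1, at 0.450 and 0.567. Gzma and Gzmb were lower as well, at 0.130 and 0.333 for Gzma and at 0.378 and 0.713 for Gzmb. Rgs16 was lower in the male library, at 0.0929, and near equal in the female library, at 0.981. Among these genes an interval is given in the text for Havcr2 alone. Only 26 female CD8 cells had a Tcf7 UMI, so the low female ratios of Prf1 and Ccl3 can rest on very few UMIs. The effector genes named here were not picked by a rule, and others that were compared are not described.

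**Figure D4:**
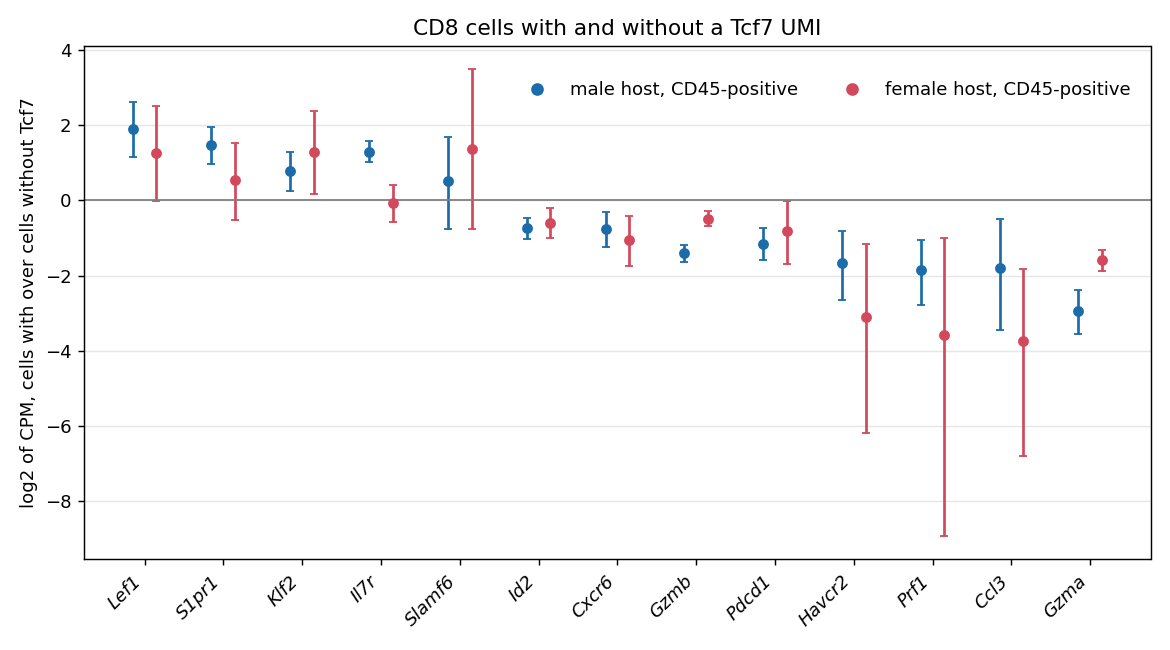
Log2 of the CPM in CD8 cells with a Tcf7 UMI over that in CD8 cells without, for 13 genes, with 95% intervals; the male library is left of the female library. The points of Lef1 and Klf2 lie above 0 in both libraries, whereas those of Havcr2, Prf1, Ccl3, Pdcd1 and Gzma lie below 0 in both.

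In the CD4 gate 26 of 179 male and 13 of 133 female cells had a Tcf7 UMI. S1pr1 was 3.50-fold higher in the male Tcf7-positive cells (2.004 to 6.06) and 5.44-fold higher in the female ones (1.98 to 13.9). Gzmb stood at 0.0816 and 0.0570 of the Tcf7-negative level, and Nkg7, a cytotoxic granule gene, at 0.244 and 0.391. Lag3, an inhibitory receptor gene, had no UMI in Tcf7-positive CD4 cells of either library, at least 3.48-fold and 3.05-fold lower by the floor of 3 counts. Some other members moved with the way Tcf7 was called in these few cells. Il7r stood at 0.481 and 0.586, and its female ratio was above 1 when Tcf7 was called in cells thinned to 1000 UMIs. Klf2 was at least 1.5-fold lower in female Tcf7-positive cells, and Lef1 at least 1.5-fold higher in male ones. Both reversed in direction when Tcf7 was called after thinning. Intervals are not given here for Gzmb, Nkg7 and Il7r.

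In the NK gate 79 of 155 male and 29 of 101 female cells had a Tcf7 UMI. Gzmb stood at 0.603 and 0.232 of the Tcf7-negative level, and Prf1 at 0.695 and 0.484, given without intervals. In the male library the Tcf7-positive NK cells were deeper, at a median of 4437 UMIs, than the Tcf7-negative ones, at 3406.5 UMIs.

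The number of the 8 genes seen in a cell was counted next. At least 1 of the 8 was seen in 72.8% of male and 77.3% of female CD8 cells, at least 2 in 41.8% and 40.0%, and at least 3 in 22.3% and 20.9%. No CD8 cell held more than 5 of them. At least 3 were seen in 13.4% of male and 13.5% of female CD4 cells, 13.1% and 14.3% of Treg cells, and 13.5% and 6.93% of NK cells.

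The 2 hosts' libraries were compared within each gate. A gene counted as higher or lower in male hosts when the ratio of CPM was at least 1.5-fold and at least 20 UMIs were counted in both libraries together. In CD8 cells 6 members were measured and 1 was higher in male hosts, none lower, where 13.4% of 7622 measured genes were higher and 11.5% lower. In CD4 cells 7 were measured, 4 were higher and none lower, against 12% and 12.3% of all genes. In Treg cells 5 were measured, 1 was higher and 2 lower, against 21.4% and 15.4%, and in NK cells 6 were measured, 1 was higher and 2 lower, against 13.9% and 14.3%. In dendritic cells 5 were measured, none was higher and 3 were lower, against 14.8% and 14.0%. In other myeloid cells all 8 were measured, 2 were higher and 2 lower, against 10.0% and 8.98%. Since a member needed 20 UMIs, a gate in which it was low could not count it.

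**Figure D5:**
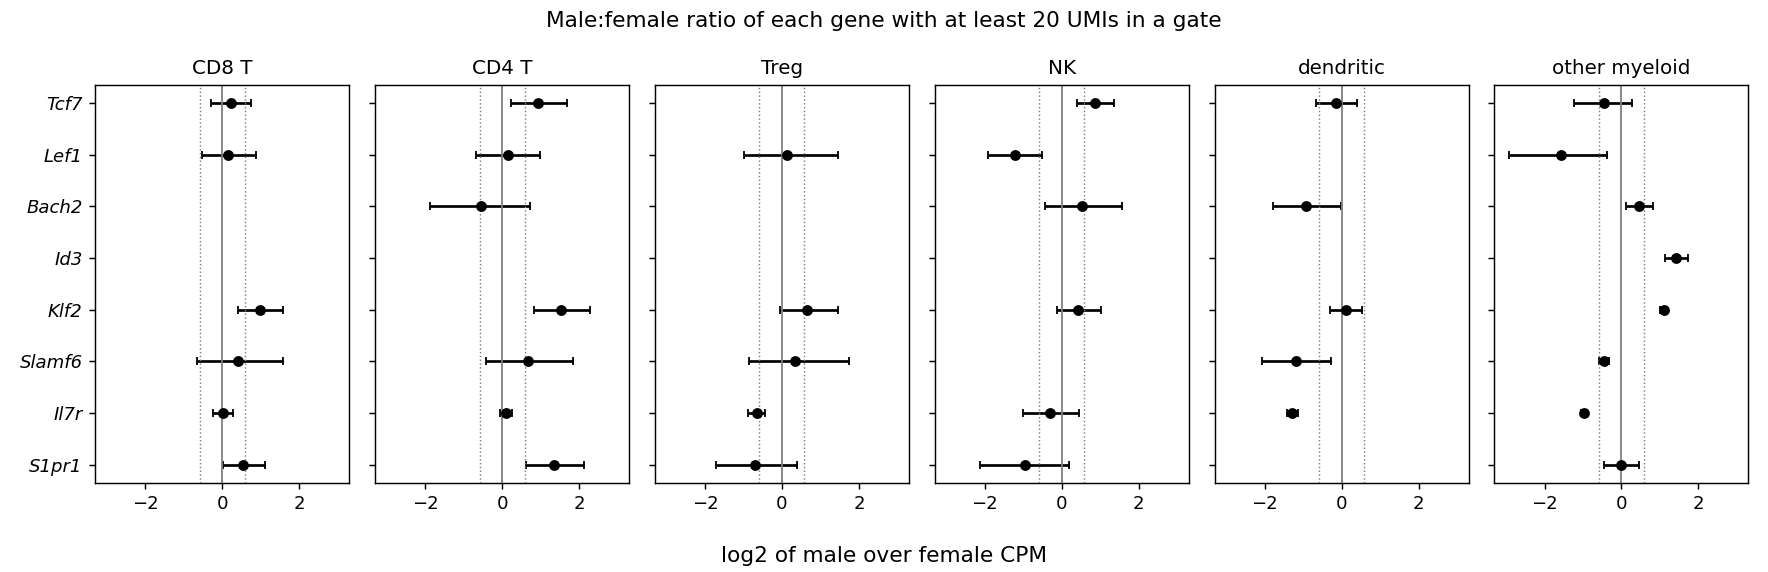
Log2 of the male over the female CPM for each gene with at least 20 UMIs in a gate, with 95% counting intervals; dotted lines mark 1.5-fold. Klf2 lies to the right of 0 in CD8, CD4 and other myeloid cells with intervals that exclude 0, and Il7r lies to the left in Treg, dendritic and other myeloid cells.

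In CD8 and CD4 cells the male library stood higher for Klf2 and S1pr1. Klf2 was 1.96-fold higher in CD8 cells (1.33 to 2.99), 2.88-fold higher in CD4 cells (1.77 to 4.84) and 1.58-fold higher in Treg cells (0.958 to 2.76), where the interval included 1. S1pr1 was 2.53-fold higher in CD4 cells (1.53 to 4.34) and 1.47-fold in CD8 cells (1.02 to 2.15), just under the threshold, with 1.34 to 1.67 over the alternatives. In Treg cells S1pr1 stood at 0.614 of the female level on 30 male and 12 female UMIs, with an interval that included 1 (0.305 to 1.32), and at 1.49 without the exclusion of cells with phagocyte or second-lineage markers. Tcf7 was 1.92-fold higher in CD4 cells (1.18 to 3.20), although the mean of per-cell CPM gave 1.39, and 1.16-fold in CD8 cells (0.820 to 1.68), where the mean of per-cell CPM gave 1.59 and cells thinned to 1000 UMIs gave 1.62. Slamf6, the fourth gene higher in CD4 cells, stood at 1.60 on 20 male and 12 female UMIs, with an interval that included 1 (0.745 to 3.59), and at 0.790 without that exclusion. Lef1 and Il7r were near equal in CD8 cells, at 1.10 and 1.010, and in CD4 cells, at 1.11 and 1.07.

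The Klf2 ratio was above 1.5 in CD8 and CD4 cells under every alternative run there, from 1.71 to 2.33 in CD8 cells and from 2.53 to 5.79 in CD4 cells. Genes of the immediate-early and dissociation response were counted beside it. In CD4 cells none of 11 was higher in male hosts and 4 were lower, against 12% and 12.3% of all genes. Egr1 stood at 83.6 CPM in male and 198 CPM in female CD4 cells. In CD8 cells 3 of the 11 were higher and 2 lower, against 13.4% and 11.5% of all genes. Among these were Jun at 157 and 89.1 CPM and Fosb at 167 and 320.4 CPM. The part of the 11 genes in the Klf2 result was not tested. In Treg cells, Il7r stood in male hosts at 0.634 of the female level (0.545 to 0.739), and without the exclusion of cells with phagocyte or second-lineage markers at 1.08.

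In NK cells Tcf7 was 1.82-fold higher in male hosts (1.33 to 2.55) and Lef1 stood at 0.432 of the female level (0.266 to 0.699). Male NK cells were deeper, with a median of 4002 UMIs against 2829. The 6 held-out NK markers summed to 7224.5 CPM in male and 14339 CPM in female NK cells. The part of this difference in the Tcf7 and Lef1 ratios was not tested. With every cell thinned to 1000 UMIs the Tcf7 ratio was 1.16, and the mean of per-cell CPM gave 1.24, both under the threshold. Lef1 stood between 0.417 and 0.523 under every alternative that could count it. S1pr1 stood at 0.514 on 14 male and 15 female UMIs, with an interval that included 1 (0.230 to 1.14).

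Dendritic and other myeloid cells differed in Il7r. It stood in male hosts at 0.411 of the female level in the dendritic gate (0.373 to 0.452) and at 0.509 in other myeloid cells (0.486 to 0.533). The dendritic gates had unlike makeups, with 129 of 513 male and 8 of 191 female cells being cDC1, which hold almost no Il7r. The dendritic subset with most Il7r, pDC, made up 20 of the male and 26 of the female cells. Its levels of 1011 CPM in male and 1110.2 CPM in female hosts had overlapping intervals (797 to 1265 and 901 to 1353). Within mature dendritic cells the ratio was 0.599 (0.531 to 0.677) and within cDC2 0.515 (0.423 to 0.627), where 13.2% and 15.1% of all genes were lower. Phagocytes gave 0.518 (0.495 to 0.543), where 9.43% of all genes were lower. Thinned to 1000 UMIs 8.40% of male and 16.2% of female phagocytes had an Il7r UMI.

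In other myeloid cells Klf2 was 2.14-fold higher in male hosts (2.01 to 2.27), and the 2 cell types of this gate gave like values, 2.0 in phagocytes and 2.08 in neutrophils (1.55 to 2.85), where 9.65% and 13.0% of all genes were higher. Id3 was 2.67-fold higher (2.17 to 3.31), and 1.57-fold with cells thinned to 1000 UMIs. Of the 11 dissociation genes 1 was higher, Dusp1 at 592 CPM in male and 379 CPM in female cells, and 1 was lower, Atf3 at 118 and 185 CPM. That is 9.09% each way, near the 10.0% and 8.98% of all genes. The part of the dissociation genes in the Klf2 and Id3 results was not tested. Lef1 stood at 0.335 of the female level on 8 male and 25 female UMIs, and at 1.56 by the mean of per-cell CPM. Slamf6 stood at 0.728 (0.666 to 0.796).

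In dendritic cells Slamf6 stood at 0.440 (0.240 to 0.820). The dendritic subset with its highest point value, pDC, made up 20 of 513 male and 26 of 191 female cells. Within subsets the direction of Slamf6 differed, at 1.34 in mature dendritic cells (0.354 to 7.49) and 0.415 in cDC2 (0.115 to 1.44), with intervals that included 1. Bach2, the third of the 3 lower genes of the dendritic gate, stood at 0.527 (0.291 to 0.980). Within cDC2 the Bach2 ratio was 1.07, and mature dendritic cells held 4.87 CPM in male and 17.1 CPM in female hosts, from 7 and 9 UMIs.

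Phagocytes with an Il7r UMI were compared with those without among cells thinned to 2000 UMIs, with genes ranked by the smaller of the 2 libraries' ratios, a choice that fixes a shared direction. There were 290 such cells and 1743 without in the male library, and 645 and 1778 in the female library. Nos2, which encodes inducible nitric oxide synthase, stood at 210.3 CPM in cells with Il7r and 18.4 CPM in cells without in the male library, and at 223 and 83.5 CPM in the female library. Mmp12, a macrophage elastase gene, was 3.28-fold and 2.64-fold higher, and Ccl17, a chemokine gene, 3.70-fold and 3.36-fold higher. Cx3cr1, the fractalkine receptor gene, stood at 0.344 and 0.321 of the level without Il7r, and Cd163, a scavenger receptor gene of resident macrophages, at 0.378 and 0.471.

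Phagocytes with a Klf2 UMI, 320 male and 223 female cells after thinning, held more Ccl4 (2.78-fold and 2.88-fold) and more Nr4a1, an immediate-early gene (2.004-fold and 2.30-fold). Those with an Id3 UMI, 67 and 36 cells, held more Plac8 (2.53-fold and 2.89-fold) and more of the heat shock genes Hsph1 (2.99-fold and 2.62-fold) and Hspa1b (2.38-fold and 6.28-fold). All of these genes were picked by the ratios given, so the sizes and directions are descriptions.

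Genes of the same pathways were counted as lists, to be read against the shares of all genes called, which in CD8 cells were 13.4% higher and 11.5% lower and in the other gates are those given above. Of 13 genes of T cell homing and quiescence, 12 were measured in CD8 cells, 2 were higher in male hosts and 1 was lower, with a median log2 ratio of -0.19 against 0.02 over all genes. Ccr7, which guides T cells to lymph nodes, stood at 86.8 CPM in male and 12.05 CPM in female CD8 cells, and Satb1, a chromatin organiser of T cells, at 241 and 523 CPM. The female Ccr7 level amounts to 5 UMIs, and no interval is given for it. In CD4 cells 1 of 12 was higher and none lower, in NK cells 1 higher and 4 lower, and in other myeloid cells 1 higher and 4 lower, one of the lower genes being Cd28 at 1.90 and 4.73 CPM; Klf6, at 591 and 794 CPM, was not called.

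Of the partners and relatives of TCF-1, 6 were measured in CD8 cells, 3 were higher in male hosts and none lower, with a median log2 ratio of 0.29. Tox, a factor of exhausted T cells, stood at 86.8 CPM in male and 16.9 CPM in female CD8 cells, and at 77.9 and 9.89 CPM in CD4 cells, where 2 of 5 were higher and 1 lower. The female Tox levels rest on few UMIs, since 3 UMIs equal 7.23 CPM in female CD8 cells and 5.93 CPM in female CD4 cells. The Groucho-type co-repressor Tle3 stood at 58.8 and 69.9 CPM in CD8 cells. Of the terminal exhaustion and effector genes all 12 were measured in CD8 cells, 4 were higher and 2 lower, with a median of 0.28. In Treg cells 2 of 12 were higher and 6 lower (median -0.53), in NK cells 1 of 10 was higher and 6 lower (-0.66), and in dendritic cells 2 of 9 were higher and 5 lower (-1.03). Prf1 stood at 186 CPM in male and 77.1 CPM in female CD8 cells, Ccl4 at 74.2 and 523 CPM, Gzmb at 2017 and 2932 CPM and Nkg7 at 1537 and 1802 CPM.

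Of the interleukin-7 receptor pathway, 10 genes were measured in CD8 cells, 2 higher and none lower, and 10 in dendritic cells, none higher and 2 lower, among them the shared gamma chain Il2rg at 210.4 CPM in male and 348 CPM in female cells. In other myeloid cells none of 12 was higher and 3 were lower, and Il7 itself, the ligand, stood at 0.282 and 0.654 CPM. Of the SLAM family and its adaptors, 9 were measured in CD8 cells and none was higher or lower, while in other myeloid cells 1 of 10 was higher, Slamf9 at 120.1 and 67.4 CPM, and 4 were lower, among them Slamf1 at 0.524 and 1.31 CPM. Of the sphingosine-1-phosphate receptors and egress genes, none of 3 measured in CD4 cells was higher or lower, with Cd69, whose protein removes the S1pr1 receptor from the surface, at 148 and 219.6 CPM. Of the relatives and antagonists of Bach2, none of 7 was higher in CD8 cells and 1 was lower, Batf at 47.2 and 72.3 CPM; in CD4 cells none of 6 was higher and 3 were lower (median -0.59), and in NK cells none of 5 was higher and 3 were lower (-0.62). Of the Id and E proteins none of 3 measured in CD8 cells was higher or lower, and Id2 stood at 887 and 766 CPM.

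Genes whose levels over the 12 gate and library sums were most like those of a member were found by Pearson's r of log2(CPM + 10), among genes with at least 200 UMIs; the 12 sums are 6 gates from only 2 libraries and share their depth, so r is a description. Lef1 was most like Ifngr1, Jade2 and Gprin3, each at r = 0.99, and S1pr1 was most like Cdc37l1 and Msh3, both at r = 0.96. Tcf7 was most like Bcl2, a survival gene, at r = 0.94. Bach2 was most like Klri2, an NK receptor gene, at r = 0.95. Within the set, Lef1 and S1pr1 were the most alike pair, at r = 0.87, then Tcf7 and Bach2, at r = 0.80, whereas Tcf7 and Slamf6 gave r = -0.61.

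Cells left out of the gates held part of each gene. Cells with CD3 and phagocyte markers together, 268 male and 314 female cells with median depths of 13026 and 13561.5 UMIs, held 11.6% of male and 21.3% of female Tcf7 UMIs. Their Tcf7 level was 23.2 CPM in male and 18.7 CPM in female hosts, and their Il7r level 246 and 272 CPM. A further 636 male and 440 female cells fell outside all gates, and these held 14.6% of male and 25.9% of female S1pr1 UMIs.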

How the data were processed

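Per the labels' protocols, cells freed from the tumours by enzymes were sorted live as CD45+ or CD45- and sequenced by the BD Rhapsody whole-transcriptome assay. The authors deposited 1 matrix per library of counts (UMIs per gene in each cell, whole numbers with no normalization). CASAVA 1.8, UMI-tools, Seurat and mm10 are named in the submitters' processing notes; the aligner was not given in the sources used here. Cells are deposited under running labels, so barcodes shared by libraries could not be counted; no 2 libraries shared an identical cell profile. The male CD45-positive matrix held 40644787 UMIs and the female one 37705608.

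T cells had at least 2 UMIs and 3 per 10000 of Cd3e, Cd3d and Cd3g, under 0.6% phagocyte and under 0.5% neutrophil marker UMIs, fewer than 2 B cell UMIs and, outside the gamma-delta gate, fewer than 2 of Trdc and Cd163l1; CD8 cells had Cd8a or Cd8b1 and no Cd4 or Foxp3, CD4 cells Cd4 alone, and Treg cells Foxp3 without Cd8. NK cells had at least 2 NK marker UMIs and 5 per 10000. Dendritic cells had at least 3 marker UMIs, 8 per 10000 and more of these than of C1q; subsets took the largest marker sum of at least 3 UMIs. Phagocytes had at least 0.6% of their marker UMIs, and neutrophils at least 0.5% of theirs. Thresholds were set after the counts were seen. No doublet caller was run. T and NK cells past the phagocyte, neutrophil or B cell limits were left out. No limit was set on NK or dendritic markers in T cells. NK markers summed to 159 CPM in male and 400 CPM in female CD8 cells. Dendritic gate markers summed to 111 CPM in male and 48.2 CPM in female CD8 cells, and to 268 and 96.9 CPM in CD4 cells. Their part in the male:female differences of Tcf7 and Ccr7 in T cells was not tested. The dendritic gate limited phagocyte markers through C1q alone. Phagocyte markers summed to 1555 CPM in male and 3165 CPM in female dendritic cells, so cells with markers of 2 lineages could remain. The members, the 9 context lists and the markers were chosen with earlier results of these data known. Where a list is compared between the libraries, the genes named are from the 2 with most UMIs and the highest and lowest ratio with at least 20 UMIs. Genes named between cells with and without a Tcf7 UMI were not picked by this rule. Tle5 and Cd244a were not counted.

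UMIs were summed by gate, with exact Poisson intervals for levels, Clopper-Pearson for shares and conditional binomial intervals for ratios, all 95% (Python 3.11.15, numpy 2.4.6, scipy 1.17.1, pandas 2.3.3). A 0 in a ratio was set to 3 counts. The ratio code was tested on simulated counts. Alternatives changed the gates, the depth per cell, the scaling and the filters. Gene positions are from GENCODE M21.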

Additional observations from a re-analysis of the deposited data

Results flagged for a closer look

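Members were also counted in the CD45-negative libraries, which no comparison above uses. In CD45-negative cells of male hosts Id3 stood at 32.2 CPM, and in those of female hosts at 25.6 CPM, in 17.7% and 17.2% of cells. These values were above its level in each of the 6 main CD45-positive gates. The interval of female CD8 cells, on 5 UMIs (3.91 to 28.1 CPM), nonetheless included the female value. S1pr1 stood in CD45-negative cells at 10.9 CPM in male and 9.6 CPM in female hosts, in 7.70% and 6.63% of cells. Of the other 6 members, Klf2 stood at 3.18 and 4.15 CPM and the rest below 1 CPM.

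The Bach2 intervals lay on opposite sides of 1 in 2 gates. Its male:female ratio was 1.38 in other myeloid cells (1.08 to 1.77), on 157 male and 119 female UMIs, short of 1.5-fold, and 0.527 in dendritic cells (0.291 to 0.980), on 33 and 19 UMIs. The dendritic gates had unlike makeups, with 129 of 513 male and 8 of 191 female cells being cDC1; within cDC2 the ratio was 1.07, and mature dendritic cells held 7 and 9 UMIs. The difference between the gates was not tested, as each holds 1 library per sex.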

How the results depend on the processing

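Each member's male:female ratio was recomputed under 14 changes of gate, depth, scaling or filter, 1 of them, no minimum of CD3 or NK marker UMIs per 10000, chosen after seeing the data; 466 values stayed within the reported counting interval, 14 moved outside it and 4 that had been past 1.5-fold reversed in direction. Direction also changed in 27 values of ratios under 1.5-fold, 1 of which then passed it, Tcf7 in other myeloid cells at 1.74 by the mean of per-cell CPM against 0.725. The number of members called was 1 in CD8 cells, and 2 with marker minima 1 UMI lower, without the exclusion of phagocyte or second-lineage markers, with cells thinned to 1000 UMIs, by the mean of per-cell CPM or with no filter on low values, and 3 without the 1 cell that held most UMIs of a member. In CD4 cells it was 4, and 0 with a filter of 100 UMIs, which left 1 member measured. In NK cells it was 3, and 6 without the exclusion, 6 without the minimum per 10000 UMIs, 0 of 3 measured after thinning and 1 of 2 measured with the filter of 100 UMIs. In dendritic cells it was 3, and 1 of 3 measured after thinning or with that filter. In Treg cells (3) and other myeloid cells (4) no alternative moved it by over 1.5 times. The genes called in Treg cells nonetheless changed without the exclusion, where Il7r and S1pr1 were no longer called. Lef1 in Treg cells, at 1.11, was then called at 1.69, and it stood at 0.681 without the deepest 5% of cells. Without the exclusion the log2 ratio reversed to -0.34 for Slamf6 in CD4 cells, and to 0.12 for Il7r and 0.57 for S1pr1 in Treg cells; by the mean of per-cell CPM it reversed to 0.64 for Lef1 in other myeloid cells. Between Tcf7-positive and Tcf7-negative CD4 cells, calling Tcf7 after thinning reversed female Ccr7 to -1.32, Il7r to 0.40 and Klf2 to 0.51, and male Lef1 to -0.50; the cause was not tested. Shares of cells fell with thinning, and 131 of 192 moved beyond their interval. No paired analysis was possible because each sex has 1 CD45-positive library. UMIs under 20 in both libraries together limit Id3 and Bach2 in T cells.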
